A study of Mus musculus with 165 samples.

Results

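Neutrophils activated with a calcium ionophore were set directly against the myeloid progenitors from which such neutrophils are grown, by the compartment score of their chromatin. The score, PC1, is the first principal component of a Hi-C contact matrix, and it has no unit. The members were the autosomal bins of 25 kb with a non-zero PC1 in the progenitor track and in both activated tracks, 94802 of the 95104 autosomal bins that any of these tracks held. The value of a bin was the mean of its PC1 at 15 and 30 min minus its progenitor PC1. A bin was called where both activated signs were opposite to the progenitor sign, which 3314 bins met (82.8 Mb of 2370 Mb, or 3.5%).

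All cells were ECOMG cells, a mouse myeloid line on the C57BL/6 background that carries human E2A_ER_Pbx1b and is otherwise labelled wild type. Progenitors were left undifferentiated and untreated, and their track is a pool of 7 libraries, all marked as re-analysed. Neutrophils were obtained by 5 days of estradiol withdrawal and received A23187, an ionophore that lets calcium across membranes, at 20 uM for 15 min (1 sample, numbered replicate 2) or 30 min (1 sample, numbered replicate 1), in medium raised to 1 mM calcium chloride. Activated cells therefore differ from progenitors in differentiation, in ionophore and in added calcium chloride. The tracks also differ in sequencing instrument and, as labelled, in pooling and re-analysis. These factors cannot be told apart here. How many independent cultures and reads lie behind each track was not given. With 1 progenitor track and 1 track per time, no difference has a test.

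Chromatin in a nucleus separates into compartment A, which is open, gene-rich and transcribed, and compartment B, which is compact, late-replicating and largely silent, often at the nuclear lamina. PC1 places each bin on this axis, and here positive values are called A and negative values B, after the usual convention. Neutrophils have lobed nuclei with condensed chromatin, and a rise of calcium in them drives secretion, the calcineurin and NFAT pathway and, when strong, decondensation of chromatin by the enzyme PADI4. Genes were not placed on these bins, because the bins are on the build mm9 and the gene tables used here are on another build, so regions are given by position alone.

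With the deposited zero, compartment A held more of the genome in activated cells than in progenitors, mainly at 15 min. PC1 was above 0 in 42.9% of the bins in progenitors, 46.9% at 15 min and 44.0% at 30 min. The difference from progenitors was thus 3.91 percentage points at 15 min and 1.08 at 30 min, and the activated times differed from each other by more than the 30 min track differed from progenitors. At 15 min the share was above that of progenitors on all 19 autosomes, by 0.691 to 6.76 points. At 30 min it was above on 14 autosomes, with differences of -0.581 to 3.53 points. Autosomes share their library, so these ranges describe spread and are no error of a group.

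Chromosome 18 gained most, with an A share of 42.4% in progenitors, 49.1% at 15 min and 45.9% at 30 min. Chromosome 3 started lowest, at 36.7%, and stood at 43.2% and 39.5%. Both therefore held more A in each activated track than in progenitors. Chromosome 13, the one with the highest share in progenitors (50.8%), stood at 51.7% and 50.2%, and chromosome 19 at 48.3%, 48.9% and 49.1%. On these last 2 the 3 tracks lay within 1.49 points of each other.

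**Figure D1:**
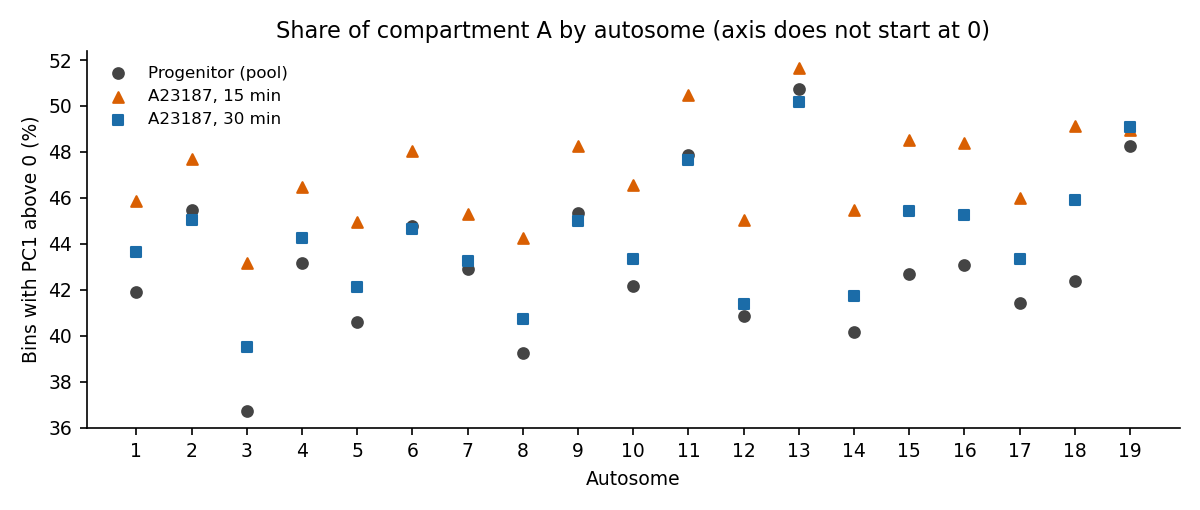
Percentage of 25 kb bins with deposited PC1 above 0 (vertical axis, not starting at 0) on each of the 19 autosomes (horizontal axis), 1 point per track. The 15 min points lie above the progenitor points on all 19 autosomes, and the 30 min points on 14.

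Bins that had crossed zero in both activated tracks went mostly into A. There were 2433 that were B in progenitors and A at both times (2.57% of all bins compared), and 881 that were A in progenitors and B at both times (0.929%). They made up 4.50% of the 54096 progenitor B bins and 2.16% of the 40706 progenitor A bins. On each of the 19 autosomes more bins had gone into A than out of it. This excess depends on where zero lies in each track. With the activated values given the same distribution as the progenitor values on each chromosome (quantile normalization), 1498 bins went into A and 1528 out of it. With zero moved to each chromosome's median, the counts were 1687 and 1672. Both settings give every track the same A share on each chromosome, or nearly so, and gains and losses at each time then have to balance. Near balance of these counts was thus largely built in, and it cannot show whether the deposited excess is real. Of the 881 bins out of A, 870 (98.8%) were also called after quantile normalization, and of the 2433 into A, 1483 (61.0%). With the median as zero, 337 of the former (38.3%) and 574 of the latter (23.6%) were also called.

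The progenitor track did not stand apart from the activated tracks more often than these stood apart from one another. Of the bins compared, 91.1% had the same sign in all 3 tracks. The progenitor track alone had the opposite sign in 3314 bins (3.5%), the 15 min track alone in 3328 (3.51%), and the 30 min track alone in 1840 (1.94%). Most of the bins in which 15 min stood alone were A at 15 min and B in the other tracks (2743). Pairwise differences in PC1 were largest between 15 min and progenitors, with a root mean square per bin of 0.294. It was 0.238 between 30 min and progenitors, and 0.237 between the activated times. Averaged over blocks of 1 Mb, these were 0.205, 0.170 and 0.167, so the 30 min track lay about as far from 15 min as from progenitors at both scales. The local noise variance, which compares every bin with its neighbours at 50 kb on both sides, was 0.0129 for the progenitor track, 0.0118 for 15 min and 0.00590 for 30 min. Its part in these counts was not tested.

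**Figure D2:**
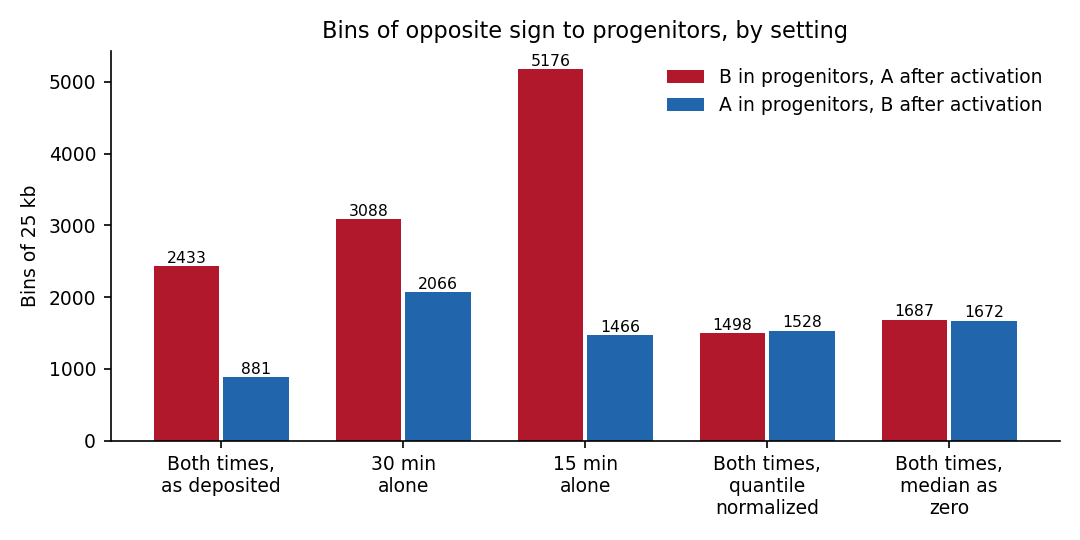
Number of 25 kb bins (vertical axis) whose PC1 sign was opposite to progenitors, under 5 settings (horizontal axis); red bars went from B to A and blue bars from A to B. Bars into A exceed bars out of A with deposited values (2433 against 881 for both times). They are level with them after quantile normalization (1498 against 1528) or with the median as zero (1687 against 1672). Both of these alternatives equalize the A share of the tracks, which largely builds in such a balance.

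The called bins were mostly weak in progenitors and stayed weak after crossing zero, beside a mean over all A bins of 0.978 at 15 min and 1.04 at 30 min and over all B bins of -0.861 and -0.819. Bins that entered A had a median PC1 of -0.207 in progenitors, 0.384 at 15 min and 0.265 at 30 min. They reached further into A at 15 min than at 30 min in 1630 of 2433 cases (67.0%). Bins that left A had a median of 0.160 in progenitors, -0.217 at 15 min and -0.288 at 30 min, and these lay deeper in B at 30 min than at 15 min in 541 of 881 cases (61.4%). The direction of the call follows from the rule, so these medians describe size only. Called or not, bins with a progenitor PC1 of -0.393 to 0.190 averaged 0.103 at 15 min and -0.0389 at 30 min. Most called bins lie there, and the 67.0% and 61.4% were not compared with uncalled bins. Progenitor PC1 lay outside the 2 activated values by more than the gap between them in 1924 of the bins that entered A (79.1%) and 660 of those that left it (74.9%). Over all bins compared this held for 36.2%, but called bins favour such a position by the rule itself.

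Many calls sat near the zero line. At least 1 of the 3 values was within 0.05 of zero in 717 of the bins called into A (29.5%) and in 316 of those called out of A (35.9%). Just outside the rule, 284 further progenitor B bins were A at 15 min and missed A at 30 min by less than 0.05, and 113 missed it at 15 min by that margin. For bins leaving A, 120 missed B at 15 min and 71 missed it at 30 min by less than 0.05.

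Sign is a narrow view of the change, because PC1 can move far within a compartment. PC1 was higher by at least 0.5 at both times in 2067 bins (2.18%) and lower by at least 0.5 at both times in 665 (0.701%). Of the bins that were higher, 1090 had changed sign at both times, 704 were in A in all 3 tracks and 115 in B in all 3. Of those that were lower, 256 had changed sign at both times, 246 were in A throughout and 86 in B throughout. Large changes within A were thus 34.1% of all large gains and 37.0% of all large falls, where 40.1% of all bins compared were A in all 3 tracks. These counts rest on the deposited values and were not repeated after quantile normalization or with the median as zero. The median absolute change was 0.123 and the 90th percentile 0.390, beside a median gap of 0.120 and a 90th percentile of 0.383 between 15 and 30 min.

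In the deposited values the largest mean rises lay in chromatin of intermediate PC1 and the largest mean falls in the strongest A. When bins were ordered by progenitor PC1 into 10 equal groups, group 6, which straddles zero (-0.393 to 0.190), was higher than in progenitors by 0.222 at 15 min and by 0.0803 at 30 min. Its mean rise over both times, 0.151, was 0.0298 after quantile normalization, and the largest rise was then in group 1, the deepest B, at 0.0406. Group 5 (-0.714 to -0.393) was higher by 0.167 and 0.0580. Group 6 alone held 80.5% of the bins that entered A and 55.3% of those that left it. Not 1 bin of the 3 lowest groups (progenitor PC1 below -0.857) was called, and 2 were called in the 2 highest (above 1.23). In the group of highest progenitor PC1 the changes were -0.190 at 15 min and -0.109 at 30 min. Each deposited track has a mean of 0 and an SD of 1.00 on every chromosome. A rise in the middle is therefore met by falls elsewhere, and whether compartments as a whole grew stronger or weaker cannot be read. Progenitor PC1 sets the groups and also enters the change, so groups and change are not independent.

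**Figure D3:**
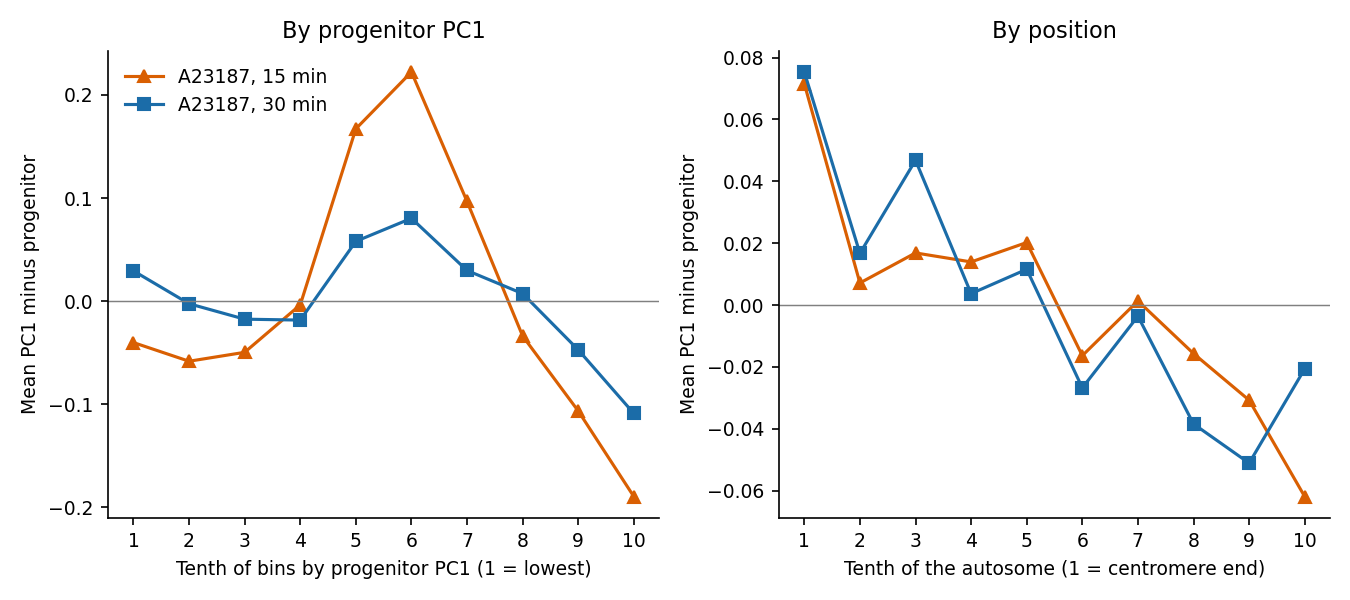
Mean PC1 minus progenitor PC1 (vertical axes, no unit, different ranges) at 15 min and 30 min. The left panel orders bins into 10 groups by progenitor PC1, with peaks of 0.222 and 0.0803 in group 6; the right panel splits each autosome into 10 equal parts from the centromere end, where part 1 is at 0.0715 and 0.0753 and part 10 at -0.0619 and -0.0206.

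Regions that left A were fewer and longer than those that entered it. The bins that entered A formed 1033 runs of neighbouring bins, with a mean length of 58.9 kb, of which 539 (52.2%) were of 1 bin. Those that left A formed 298 runs with a mean length of 73.9 kb, of which 125 (41.9%) were of 1 bin. Runs of at least 10 bins (250 kb) numbered 22 into A, on 12 autosomes, and 16 out of A, on 10 autosomes. They held 11.4% of the bins that entered A and 22.2% of those that left. Deposited bins are read from windows of 50 kb, per the file titles, so neighbours share reads and a run of 2 bins is not 2 observations.

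The longest run into A was on chromosome 2, chr2:79450001-80125000 (675 kb), with a mean PC1 of -0.417 in progenitors, 0.710 at 15 min and 0.687 at 30 min. The 30 min value minus the 15 min value was -0.0228, against a mean change of 1.12. In progenitors every bin of this stretch was below zero, from -0.791 to -0.0799. It holds the 500 kb window with the largest rise among all autosomes (-0.468, 0.762 and 0.722). After quantile normalization all 27 of its bins were also called, and with the median as zero 19 were.

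Chromosome 2 carried 4 of the 8 longest runs into A. Of these, chr2:43850001-44275000 went from -0.113 to 0.740 and 0.350. Further along, chr2:45500001-45825000 went from -0.261 to 0.287 and 0.462, and chr2:45925001-46325000 from -0.366 to 0.373 and 0.430. The last 2 lie close together, and the 500 kb beyond the second of them were strong B at -0.915 in progenitors and -0.809 in the mean of the activated tracks. The rise thus ended at that edge.

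The other long runs into A lay on chromosomes 18, 4, 9 and 13. The stretch chr18:3800001-4175000, near the centromere end, went from -0.492 to 0.385 and 0.589. On chromosome 9, chr9:7225001-7550000 went from -0.612, the lowest progenitor mean among these 8, to 0.565 and 0.341. In both, the 500 kb on 1 side was above zero already in progenitors (0.669 and 0.0463) and the 500 kb on the opposite side below it (-0.335 and -0.599). On chromosome 13, chr13:9200001-9500000 went from -0.264 to 0.338 and then 1.08, and on chromosome 4, chr4:4100001-4450000 went from -0.245 to 0.196 and 0.558. These last 2 were higher at 30 min than at 15 min, by 0.737 and 0.362. The setting of zero moved these calls unevenly. The run on chromosome 18 kept 5 of 15 called bins after quantile normalization and 10 with the median as zero, and the run on chromosome 4 kept 5 of 14 and 0. On chromosome 2, chr2:43850001-44275000 kept 16 of 17 and 2.

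The longest run out of A was chr4:130625001-131100000 (475 kb), a pocket between strong A segments. Its mean was 0.239 in progenitors, -0.284 at 15 min and -0.315 at 30 min, while the 500 kb on its sides had means of 1.15 and 0.805 in progenitors and 1.16 and 0.760 after activation. The flank means therefore stayed in A as the pocket went below zero, although 4 bins just beyond its right edge also left A at both times. Another pocket, chr7:89350001-89700000 on chromosome 7, went from 0.372 to -0.622 and -0.180. Its flanks had means of 0.699 and 0.996 in progenitors and 0.409 and 0.839 after activation, so they stayed in A but were lower too. With the median as zero, the chromosome 4 run kept 9 of 19 called bins and the chromosome 7 run 0 of 14, while both kept all after quantile normalization.

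**Figure D4:**
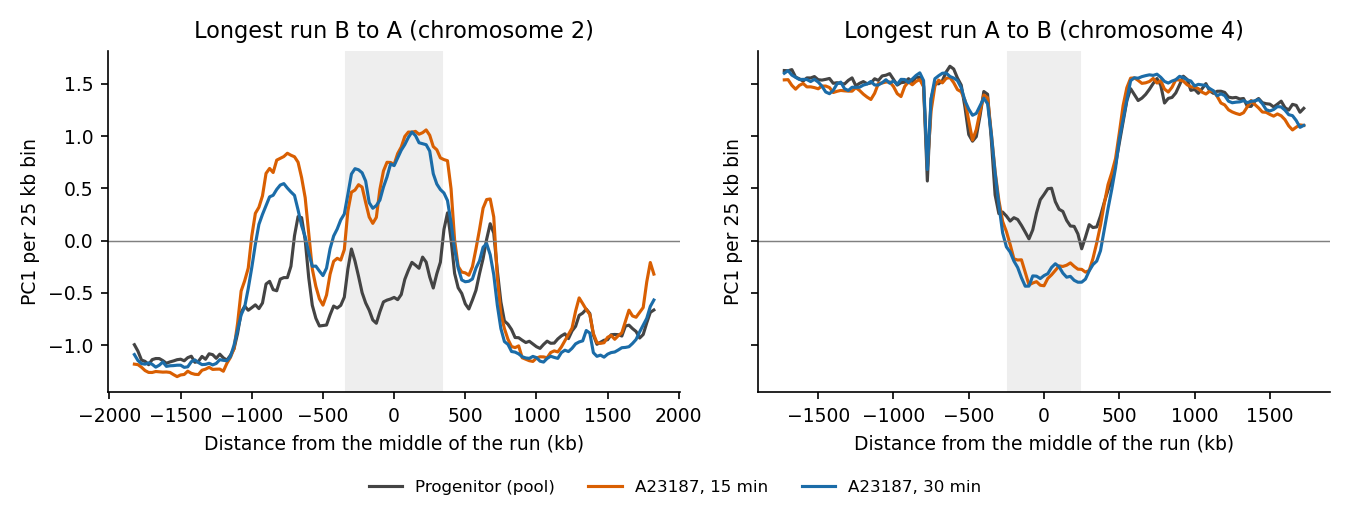
PC1 per 25 kb bin (vertical axis, no unit) against distance from the middle of the longest run into A (left) and the longest run out of A (right), in kb, for the 3 tracks; grey marks the run. Inside the left run the activated lines stay above zero and the progenitor line below, and inside the right run the reverse, with all lines close to each other in strong A on both sides.

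The sharpest losses were on chromosomes 7 and 9. The run chr7:131800001-132125000 went from 0.556 to -0.548 and -0.572, and the 500 kb window with the largest fall overlaps it, chr7:131525001-132025000, at 0.957, -0.170 and -0.282. The run chr9:86000001-86325000 went from 0.671 to -0.511 and -0.218. Chromosome 13 had its longest loss at chr13:102900001-103350000, which went from 0.328 to -0.325 and -0.632. In these 3 runs the change nearest to zero in either activated track was -0.653, at 15 min on chromosome 13. On chromosome 1, chr1:155800001-156200000 went from 0.194 to -0.131 and -0.230, and chr1:61200001-61475000 from 0.0834 to -0.336 and -0.718. On chromosome 2, chr2:74825001-75100000 went from 0.317 to -0.0710 and -0.623. With the median as zero these 3 runs kept 0 of 16, 11 of 11 and 2 of 11 called bins, and the run on chromosome 9 kept 3 of 13. In the run on chromosome 2 the 15 min mean was barely below zero, with changes from progenitors of -0.388 and -0.940 at the respective times.

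Some of the largest changes lay partly within A. The window chr15:5225001-5725000 was at 0.0796 in progenitors, 0.945 at 15 min and 1.22 at 30 min, and chr16:24425001-24925000 at 0.0212, 1.07 and 0.969. Progenitor means near zero thus became strong A. Both windows were mixed in progenitors, as 6 and 10 of their 20 bins were called and so were B there. The window chr4:86575001-87075000 went the opposite way, from strong to weak A (1.18, 0.117 and 0.249), and only 3 of its 20 bins were called. On chromosome 11, chr11:9125001-9625000 went from -0.184 to 0.912 and 0.772. The fifth window by rise, chr10:6375001-6875000, was -0.511 in progenitors, 0.917 at 15 min and -0.0409 at 30 min, so its mean rise rests mainly on the 15 min library. Of the falls, chr9:85800001-86300000 went from 0.648 to -0.512 and -0.176, chr13:102750001-103250000 from 0.601 to -0.129 and -0.419, and chr13:98500001-99000000 from 0.639 to -0.0397 and -0.339. All 26 named regions kept the direction of their mean change with either activated library alone, which the way they were chosen required. They also kept it after quantile normalization and with the median as zero, which their choice for size and for a common direction favours.

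**Figure D5:**
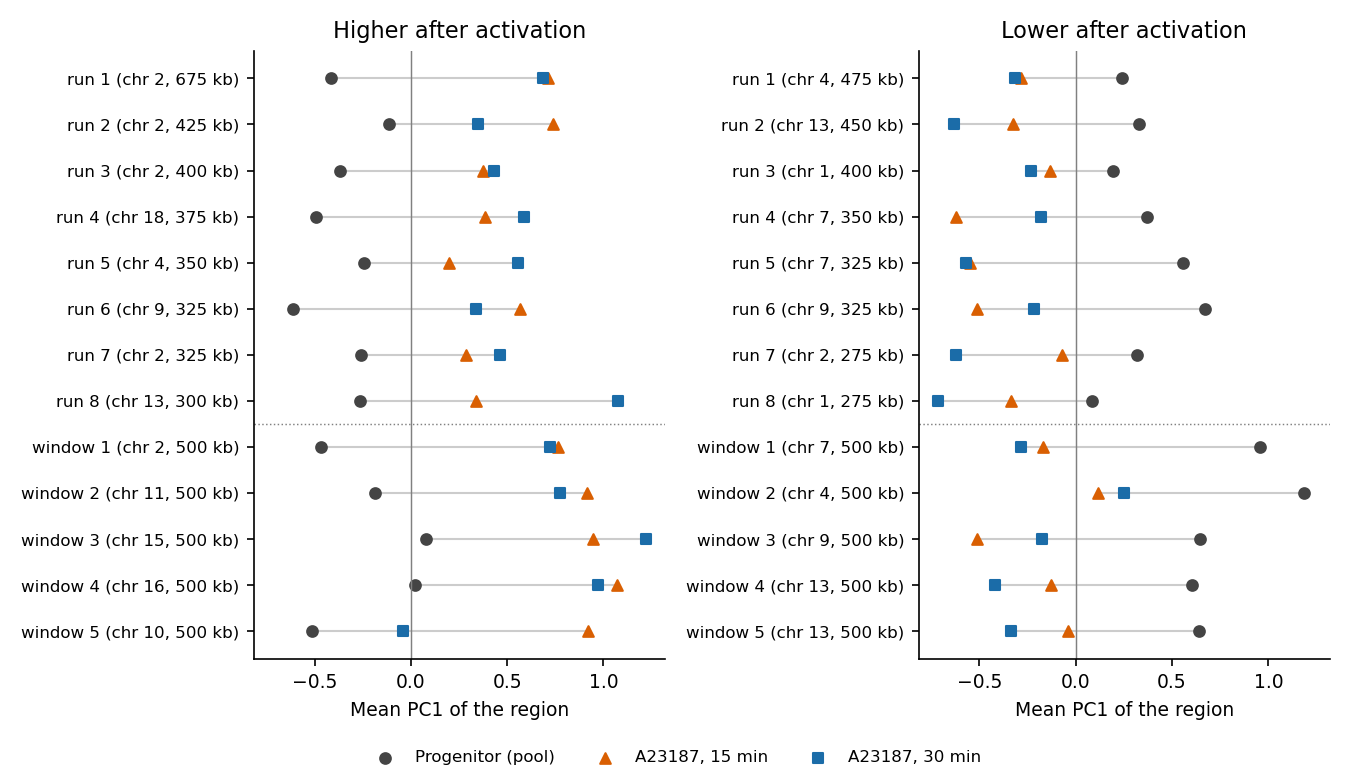
Mean PC1 (horizontal axis, no unit) of the 8 longest runs and the 5 windows of 500 kb with the largest change in each direction (vertical axis, with chromosome and length), 1 point per track. In the runs both activated points are on the opposite side of zero from the progenitor point, as the rule requires. Window 5 of the left panel has the widest gap between 15 min (0.917) and 30 min (-0.0409), followed by run 8 of that panel (0.338 and 1.08).

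Called bins lay mostly at the edges of progenitor segments. A segment is a run of bins of 1 sign in the progenitor track. Of the bins that entered A, 66.5% were in runs that touched a segment border without flipping the segment, 559 bins were in 167 B segments of which at least 0.9 of the bins were called, and 10.5% lay inside a B segment with no contact to A. For bins that left A these were 55.7%, 146 bins in 59 A segments, and 27.7%. The flipped B segments were short, with a median of 75 kb and a longest of 350 kb, where the median B segment measured 450 kb. Among B segments of up to 100 kb, 132 of 298 (44.3%) flipped, and 51 of 411 A segments of that length did (12.4%). Above 500 kb, 0 of 696 B segments and 0 of 436 A segments flipped. Segments were cut on the progenitor track, which also enters the call. Bins near zero, which the rule favours, tend to lie where the sign changes. A place at the edges is therefore favoured by the rule itself, and no matching share was taken for uncalled bins.

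The surroundings of called bins were mixed. The mean progenitor PC1 between 500 kb and 1 Mb away was -0.153 in the median for bins that entered A, against -0.575 for bins that were B in all 3 tracks. It was above zero for 38.5% and 21.0% of them. For bins that left A the median was 0.254, against 0.586 for bins that were A in all 3 tracks, and 60.5% and 77.1% had surroundings above zero. Called bins of both directions thus lay in neighbourhoods nearer to zero than the bins that kept 1 sign in all 3 tracks. Progenitor PC1 enters both the call and the surroundings, and the bins were not matched on it. The rule itself therefore favours such a difference.

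Gains lay more toward the centromere end of the autosomes and losses more toward the telomere end. Mouse autosomes have their centromere at the start of the coordinates. Of the 5 parts out of 10 on the centromere side, 3.19% of the bins entered A and 0.675% left it, against 1.95% and 1.18% on the telomere side. The first part of 10 had the highest share that entered A, 4.52%, and part 9 the highest share that left it, 2.03%. Only B bins can enter A and only A bins can leave it. The progenitor A share was 35.5% in part 1 and 51.4% in part 10, and the shares here, of all bins, were not adjusted for this. Mean PC1 was higher than in progenitors by 0.0259 at 15 min and 0.0306 at 30 min on the centromere side, and the values on the telomere side were -0.0246 and -0.0281. With chromosome means at 0 in all tracks, the sides have to balance, so these are 2 views of 1 tilt. The mean change was higher on the centromere side on 16 autosomes at 15 min and on 17 at 30 min. The share that entered A was higher on the centromere side on 15 of 19 autosomes, and the share that left A was higher on the telomere side on 12. Both times share the progenitor track, so the 2 counts are not independent.

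For gains and for mean change, the contrast was larger at the chromosome ends. In the first 5 Mb with values, 5.78% of the bins entered A and 0.968% left it, and the mean change was 0.0732 at 15 min and 0.0835 at 30 min. It was above zero at both times on 10 autosomes and below at both on 2, so the ends did not all move the same way. Chromosome 18 had the highest share there, with 15.5% of its bins entering A. In the last 5 Mb the mean change was -0.109 at 15 min and -0.0566 at 30 min, below zero at both times on 15 of 19 autosomes and above at both on 1. There 1.46% of the bins entered A and 1.17% left it, so most of this fall took place without a change of sign. These last bins are richest in A, at 54.2% in progenitors against 42.4% between the ends. On average over all autosomes the bins of highest progenitor PC1 were lower in activated cells. After quantile normalization the mean change over both times was -0.0893 in the last 5 Mb (-0.0830 as deposited). In the group of highest progenitor PC1 it was -0.0506 (-0.149 as deposited). Whether these 2 falls are linked was not tested.

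Autosomes differed in both gains and losses. Bins that entered A were 1.3% (chromosome 19) to 4.15% (chromosome 15) of a chromosome's bins, with a median of 2.20%. Bins that left A were 0.0820% (chromosome 17, 3 bins) to 1.87% (chromosome 13, 87 bins), with a median of 0.933%. On chromosome 13 the directions were nearest to balance, 102 bins in and 87 out. On chromosome 17 they were farthest from it, 76 in and 3 out, followed by chromosome 18 with 139 in and 9 out and chromosome 14 with 129 in and 10 out. Chromosome 15 combined the highest share of gains with a share of losses above the median (1.09%). All these counts use the deposited zero, on which the balance of gains and losses depends, and were not repeated by chromosome with another zero.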

How the data were processed

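In situ Hi-C of MboI-cut chromatin gave the contact maps. Per the submitters' processing notes the tools were HiC-Pro, Bowtie2 and HOMER on mm9; versions were not given in the sources used here. PC1 values are scores at 25 kb steps from 50 kb windows, per the file titles, and were used as deposited by the authors. On each autosome they have a mean of 0 and an SD of 1.00 in each track. Depth is unknown, so no interval or detection limit is given.

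Bins present and non-zero in the pooled progenitor, 15 min and 30 min tracks were compared with pandas 2.3.3 and numpy 2.4.6. The untreated neutrophil track and its domain lists were not used, and neither was gene annotation, which is on another build. Regions named are the 8 longest runs each way, with ties going to the larger mean change. They also include the 5 non-overlapping windows of 500 kb with the largest rise and fall among those that moved the same way at both times. The calling step was run on simulated data as a check of the code, which does not test the calls reported here. The comparison, its members and most measures were chosen with earlier results of these data known. Coordinates are 1-based mm9 positions. Alternatives were each activated library alone, size, length and near-zero limits, quantile normalization, a median zero, 100 kb blocks and chromosome X added.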

Additional observations from a re-analysis of the deposited data

Results flagged for a closer look

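In 8 summaries the change from progenitors had opposite signs at 15 and 30 min. The gap between times, 30 min less 15 min, was not tested because both times have a single track. The A share was higher than in progenitors at 15 min and lower at 30 min on 5 autosomes. The difference in percentage points was -2.65 on chromosome 2 (2.19 and -0.468), -3.39 on chromosome 6 (3.26 and -0.137) and -3.26 on chromosome 9 (2.93 and -0.330). It was -2.82 on chromosome 11 (2.61 and -0.211) and -1.49 on chromosome 13 (0.904 and -0.581). Among bins grouped by progenitor PC1, the lowest group changed by -0.0402 at 15 min and 0.0293 at 30 min, a difference of 0.0696. Group 8 changed by -0.0339 and 0.00724, a difference of 0.0411. Part 7 of 10 along the autosomes changed by 0.00133 and -0.00361, a difference of -0.00494.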

How the results depend on the processing

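The excess of bins entering A rests on the deposited zero. They made up 73.4% of the called bins as deposited, 49.5% after quantile normalization and 50.2% with the median as zero. Quantile normalization and a median zero equalize the A share of the tracks, so such a balance is largely built in. It cannot show whether the deposited excess is real. With either activated library alone the share was 59.9% to 77.9%, the counts into A 3088 to 5176 and out of A 1466 to 2066, the rule then asking for 1 sign only. Bins into and out of A numbered 1556 and 396 with a change of at least 0.5 times the progenitor root mean square, 1188 and 510 in runs of at least 4 bins, and 1191 and 367 with an absolute PC1 of at least 0.1 in all 3 tracks. They numbered 1498 and 1528 after quantile normalization, and 1672 left A with the median as zero, which shifts all changes by -0.122 on average. Runs of at least 2 bins, 100 kb blocks and chromosome X moved neither share by over 1.5 times. Grouped by progenitor PC1, the changes of groups 1, 2, 3, 4 and 7 were 0.0406, 0.0269, 0.0147, 0.00681 and -0.0250 after quantile normalization, all of opposite sign to the deposited values, and those of groups 6 and 10 were 0.0298 and -0.0506. With 1 library alone group 1 ran from -0.0402 to 0.0293 and group 8 from -0.0339 to 0.00724. The change after quantile normalization was 0.0556 in the first 5 Mb and -0.0893 in the last 5 Mb. For these ends that alternative was chosen after seeing the data. Beyond these effects of construction, the cause was not tested. Gene density, GC content and gene lists were not run. No paired analysis was possible because each time has 1 track and the progenitor track is a pool.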

Other observations

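Chromosome X lay outside the comparison and showed another order of the tracks. Over 5845 bins, the A share was 38.8% in progenitors, 43.9% at 15 min and 48.6% at 30 min, where on 18 of 19 autosomes it was higher at 15 than at 30 min. On X 193 bins (3.30%) were B in progenitors and A at both times, and 14 (0.240%) the reverse. A further 448 bins (7.66%) were A at 30 min only and 258 (4.41%) at 15 min only. Pearson r over bins, which are not independent, was 0.911 for 15 min with progenitors, 0.912 for 30 min with progenitors and 0.856 between the activated tracks, whereas on autosomes the lowest value for any of these pairs was 0.948.

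Gains and losses were also counted in blocks of 5 Mb, without matching their unequal numbers. Of 504 blocks, 129 held no bin that entered A and 349 none that left it. The 10 blocks with most such bins held 11.5% of the gains and 26.1% of the losses. The block with most gains was chr15:50000001-55000000, with 39 of 200 bins entering A and 0 leaving it, at a mean PC1 of -0.502 in progenitors, -0.328 at 15 min and -0.362 at 30 min. The block with most losses was chr7:130000001-135000000, with 36 of 200 bins leaving A and 0 entering it, at 0.911, 0.607 and 0.553. These blocks were picked after their values were seen.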
